A study of Mus musculus with 8 samples.

Results

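Open chromatin at 10 genes of the NF-kB system was measured in medullary thymic epithelial cells (mTEC) of the mouse: the subunits Rel, Rela, Relb, Nfkb1 and Nfkb2, the inhibitors Nfkbia, Nfkbib and Nfkbie, and the kinases Map3k14 and Chuk. The members were taken from the authors' merged peak table as every peak assigned to 1 of these gene symbols, each peak by itself and the sum of a gene's peaks within 10 kb of its transcription start site (TSS). All 10 genes had at least 1 peak, and together they held 73 of the 74090 merged peaks, of which 34 lay within 10 kb of the TSS. The table named 18215 genes, 15695 of them with a peak within 10 kb.

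NF-kB proteins are dimers of Rel-family subunits that are kept out of the nucleus by inhibitor proteins of the IkB family. In the canonical pathway an IkB kinase complex marks the inhibitors for destruction and frees dimers of RelA or c-Rel with p50, and in the non-canonical pathway the kinase NIK acts through IKK-alpha on the p100 precursor, which yields dimers of RelB with p52. In the thymus, signals through RANK, CD40 and the lymphotoxin beta receptor drive the growth and maturation of medullary epithelium through both pathways, and mice without Relb lack a normal medulla.

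The cells came from C57BL/6 thymus digested with collagenase, dispase and DNase and enriched on Percoll, and all 4 populations were sorted as CD45-negative and Epcam-positive. The further sort markers were MHCII low with Itgb4 positive for mTEC-I, MHCII high for mTEC-II, Ly6D positive for mTEC-III, and MHCII low, Itgb4 negative and L1cam positive for mTEC-IV. Each population had 2 libraries, made by ATAC-seq, whose transposase inserts sequencing adapters where chromatin is open. The labels used here give no ages, number of animals or pooling, so p-values measure the spread between libraries, which may be technical. Sorted cells were profiled in bulk, so a lower value from fewer cells with an open site and one from less opening in each cell cannot be told apart.

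The libraries held 3606436 to 10374623 total tags, of which 8.44% to 19.7% lay in merged peaks, and 1424 to 4527 read ends fell on the members' peaks. mTEC-III had the lowest shares in peaks, 8.44% and 11%, against 14.2% to 19.7% in the other 6 libraries. Values below are tags per 10000000 total tags, further scaled by TMM factors (called scaled tags), which set the bulk of genes level. Without that step, on the authors' total-tag scale, the median gene moved by 0.46 (log2) for mTEC-I, 0.21 for mTEC-II, -0.85 for mTEC-III and 0.20 for mTEC-IV against the mean of the other 3, and directions of the members are relative to this median. Of the sort's own genes, H2-Aa and H2-Ab1 were lowest in mTEC-IV, while L1cam, Itgb4 and Ly6d did not pass the F test over the 4 populations and Ptprc (CD45) had no peak. L1cam had 11.1 and 12.3 scaled tags in mTEC-IV, against 1.15 to 3.42 in the other 6 libraries (F test adjusted p = 0.0724). Against the mean of the other 3 it was called higher in mTEC-IV (1.90 ± 0.57 log2, adjusted p = 0.0256). Summed signal at the 5 tuft cell genes listed (Dclk1, Trpm5, Pou2f3, Gnat3, Avil) was 317 and 302 in mTEC-IV, against 80.2 to 151 elsewhere, with Dclk1 apart: it had 66.8 and 68.3 in mTEC-IV and was highest in mTEC-I, at 83 and 80.9 (0.86 ± 0.22 log2 against the mean of the other 3, adjusted p = 0.00803).

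Of the 10 members, 8 had a promoter window in RefSeq (GRCm38.p6, 250 bases before to 50 after a start, 10 windows), and Nfkb1 and Relb had none. The stretches below are shown because they hold the letters that NF-kB dimers are known to bind, at the promoters of members that are themselves known NF-kB targets. The patterns searched on both strands were GGGANNTTC and GGGANNTCC, forms of the kappa-B site chosen after the windows had been read. A site that reads as the second pattern on both strands counts there on each, 1 base apart. Each stretch runs 5′ to 3′ on the gene's strand for 150 bases, from 120 bases before the start, with matches in capitals.
Rel (chr11:23770940-23771089, minus strand): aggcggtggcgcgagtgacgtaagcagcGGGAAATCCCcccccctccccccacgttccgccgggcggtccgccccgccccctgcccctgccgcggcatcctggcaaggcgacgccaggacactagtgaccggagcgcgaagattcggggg
Nfkb2, first start (chr19:46304617-46304766, plus strand): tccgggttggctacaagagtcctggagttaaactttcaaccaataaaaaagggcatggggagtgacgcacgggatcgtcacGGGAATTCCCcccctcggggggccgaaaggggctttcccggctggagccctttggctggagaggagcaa
Nfkb2, second start (chr19:46305575-46305724, plus strand): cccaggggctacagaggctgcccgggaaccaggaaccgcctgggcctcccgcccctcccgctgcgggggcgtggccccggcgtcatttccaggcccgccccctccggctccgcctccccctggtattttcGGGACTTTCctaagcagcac
Nfkbia (chr12:55492618-55492767, minus strand): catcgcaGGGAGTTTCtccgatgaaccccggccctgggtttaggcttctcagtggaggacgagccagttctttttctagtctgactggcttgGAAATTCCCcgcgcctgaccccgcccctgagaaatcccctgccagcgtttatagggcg
The Rel window had GGGAAATCC beginning at -92, counted from the TSS, which with its overlapping opposite-strand match makes the capitals shown, and a further opposite-strand match at -228. The window of the first Nfkb2 start had GGGAATTCC at -39 in the same arrangement. The window of the second Nfkb2 start had GGGACTTTC at 11 downstream, with opposite-strand matches at -235 and -182. Nfkbia had GGGAGTTTC at -113 and an opposite-strand match, read here as GAAATTCCC, at -28. No match lay in the windows of Rela, Nfkbib, Nfkbie, Map3k14 or Chuk, which says only that these letters are not there. Across 32851 windows of 27025 genes, 3.94% held GGGANNTTC and 4.3% held GGGANNTCC. A further Nfkb2 start, shortly downstream of the second, has an overlapping window with 1 match, the same GGGACTTTC, at -225 from that start. The first and second Nfkb2 starts are 958 bases apart both here and in the authors' mm9 table, where each of these carried its own peak.

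As sums within 10 kb, Rel, Relb, Nfkbia and Nfkbie differed among the 4 populations, and in each of them mTEC-II and mTEC-III lay on the high side. All 10 members passed the filter on low values as sums, and 4 of them passed limma's F test at an adjusted p under 0.05, where the background was 28.6% of 15085 genes. The adjusted p was 0.000353 for Nfkbia, 0.00112 for Nfkbie, 0.00411 for Relb and 0.00786 for Rel. The other 6 members had adjusted p between 0.310 and 0.634. In mTEC-IV, 3 members (Relb, Nfkbia and Nfkbie) were lower than the mean of the other 3 populations, where 7.46% of all genes were called lower, and none was higher, where 9.39% were. In mTEC-I, 1 member (Rel) was lower (background 11.1%) and none higher (10.7%), and in mTEC-II, 1 member (Nfkbia) was higher (2.19%) and none lower (1.99%). In the pairs, mTEC-I was lower than mTEC-II at 2 members and than mTEC-III at 2 (backgrounds 6.42% and 7.72%), with none higher (6.07% and 8.59%). mTEC-I was higher than mTEC-IV at 1 member (9.75%), mTEC-II at 4 (5.55%) and mTEC-III at 3 (4.61%), with none lower (11.4%, 7% and 5.89%). No member was called in mTEC-III in either direction (backgrounds 1.56% higher and 2.06% lower). There 4 members had an unadjusted p under 0.05, with no share of all genes given beside it. With TMM factors from promoter peaks, 3 members were called higher in mTEC-III (398 of 15085 genes), and with edgeR 1 was (388 of 15319 genes). The 4 comparisons against the mean of the other 3 use the same 8 libraries and are not independent. Differences are given as log2(value + 1) of the first population minus the second or the mean of the others, ± SE from a fit over all 8 libraries with 2 in each population. The median log2 difference of the members was -0.13 for mTEC-I, 0.13 for mTEC-II, 0.18 for mTEC-III and -0.29 for mTEC-IV, and that of all genes was -0.03, 0.00, -0.04 and 0.09 in the same order. On the authors' total-tag scale the split was otherwise: 1 member was called higher in mTEC-I and 8 lower in mTEC-III, with none in mTEC-II or mTEC-IV. Of all 15085 genes, 4617 were called higher in mTEC-I and 11074 lower in mTEC-III on that scale, so most genes shared the lower call in mTEC-III. Summed over peaks within 1 kb alone, 2 of the 10 members passed the F test, and Rel (0.229) and Nfkbie (0.166) did not.

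**Figure D1:**
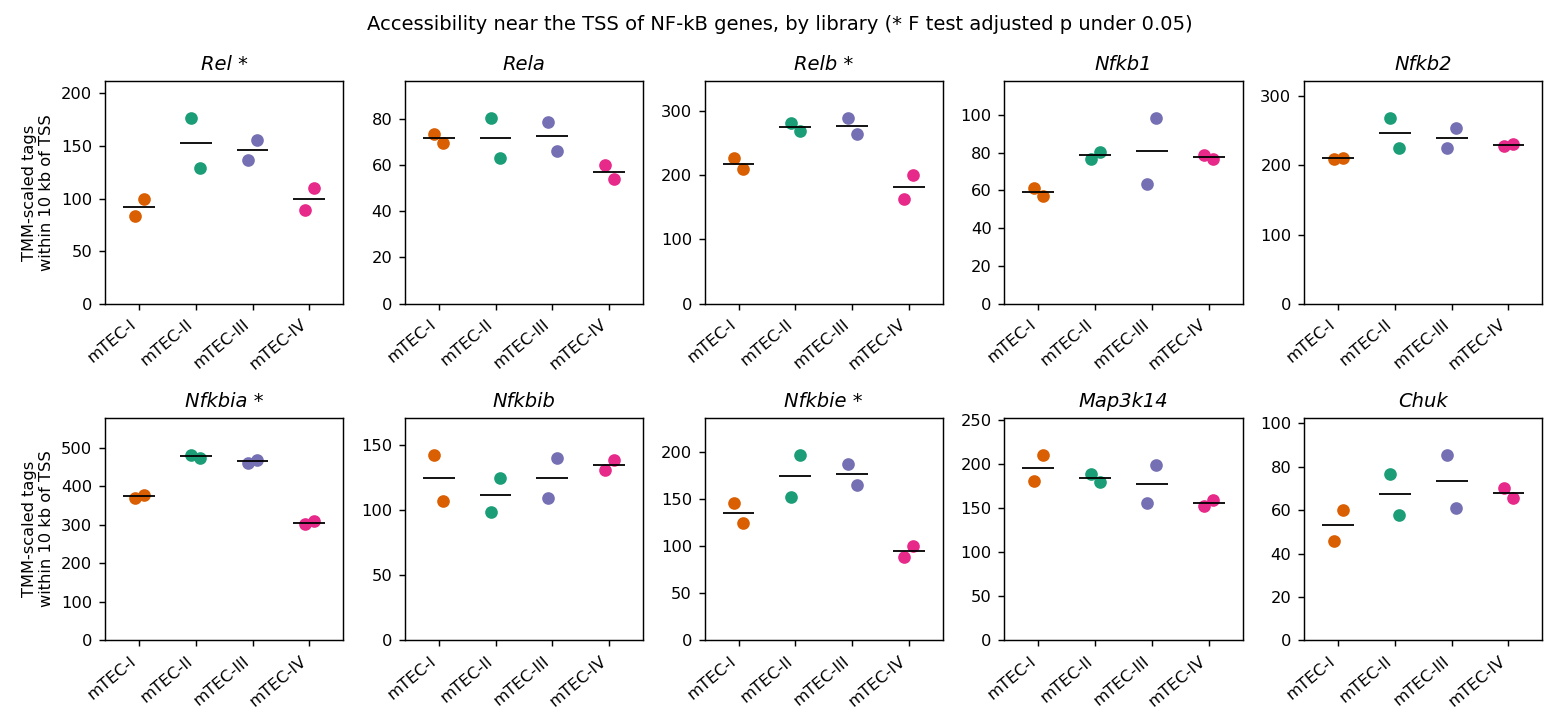
Summed accessibility within 10 kb of the TSS of the 10 members, in scaled tags, in each of the 8 libraries of mTEC-I to mTEC-IV, where points are libraries and lines are the means of the 2. Nfkbia, Relb and Nfkbie sit lowest in both mTEC-IV libraries, and both mTEC-I libraries of Rel lie below both of mTEC-II and of mTEC-III.

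Rel encodes c-Rel, a subunit with a transactivation domain that works in the canonical pathway. Its sum was 83 and 100 for mTEC-I, 176 and 129 in mTEC-II, 137 and 156 for mTEC-III, with 89.1 and 110.4 for mTEC-IV. Both mTEC-I libraries were below all 4 of mTEC-II and mTEC-III, and overlapped with mTEC-IV. mTEC-I was lower than the mean of the other 3, at -0.51 ± 0.15 (log2, adjusted p = 0.0214), lower than mTEC-II (-0.72 ± 0.19 log2, adjusted p = 0.0145) and lower than mTEC-III (-0.67 ± 0.19 log2, adjusted p = 0.0178), while mTEC-II was higher than mTEC-IV (0.60 ± 0.19 log2, adjusted p = 0.0380). The call against the mean of the other 3 was lost without mTEC-I replicate 1 (adjusted p = 0.546) or replicate 2 (0.165), and the F test call without mTEC-I replicate 1 (0.0610). The pair with mTEC-II was lost without mTEC-I replicate 1 (0.312) or 2 (0.0961) or mTEC-II replicate 1 (0.147), that with mTEC-III without mTEC-I replicate 1 (0.309) or 2 (0.0957) or mTEC-III replicate 2 (0.0689), and that of mTEC-II with mTEC-IV without mTEC-II replicate 1 (0.286), mTEC-III replicate 1 (0.0526) or mTEC-IV replicate 1 (0.556) or 2 (0.103). On the authors' total-tag scale the F test gave 0.0549, the difference of mTEC-I lost its call (adjusted p = 0.988), and the mTEC-I minus mTEC-III difference turned to 0.32. Within 1 kb alone the F test gave 0.229. Summed over peaks at any distance, Rel was called against the mean of the other 3 in each population. It was lower in mTEC-I (-0.55 log2, adjusted p = 0.00198) and mTEC-IV (-0.46, 0.00776). It was higher in mTEC-II (0.52, 0.0111) and mTEC-III (0.48, 0.0237).

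The 2 promoter peaks of Rel, at -247 and 31, did not pass the F test, with adjusted p of 0.113 and 0.508. Of its other 6 peaks 5 did, beside 60.3% of all peaks farther than 1 kb from a TSS. Positions are bases from the TSS in the authors' mm9 table, negative upstream. A peak was tested if it had 10 tags in at least 2 libraries. A peak open in 1 population alone thus entered through that population, and its higher call there is not independent of this filter. At -8065 (chr11:23678895-23679175) the signal was 1.79 and 0 for mTEC-I, 13.7 and 24.2 in mTEC-II, 39.3 and 31 for mTEC-III, with 5.57 and 6.16 for mTEC-IV. Both mTEC-I libraries lay under every other library, and both mTEC-III libraries above, for -3.33 ± 0.49 (log2, adjusted p = 0.000241) in mTEC-I and 2.57 ± 0.49 (log2, adjusted p = 0.0161) in mTEC-III. The peak at 16568 (chr11:23654282-23654523), in intron 3 of 9, was again lowest in mTEC-I and highest in mTEC-III, with 1.79 and 4.92 for mTEC-I, 12.6 and 31.2 in mTEC-II, 59.8 and 36.2 for mTEC-III, with 19.5 and 29.8 for mTEC-IV. There mTEC-I was lower, at -2.85 ± 0.40 (log2, adjusted p = 0.000191). At -52393, farther upstream, mTEC-I had 0.446 and 1.09, against 2.06 to 47.6 in the other 6 libraries, and mTEC-II had the highest mean (2.57 ± 0.59 log2, adjusted p = 0.0167) while overlapping with mTEC-III. The mTEC-III call at -8065 was lost without mTEC-III replicate 1 (0.121), and the mTEC-II call at -52393 without mTEC-II replicate 1 (0.107) or 2 (0.203).

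A pair of Rel peaks had another shape. At -17204 (chr11:23688066-23688283), on a repeat annotated ID_B1, mTEC-IV had 0.694 and 2.06, against 15.5 to 26.8 in the other 6 libraries, which made it lower, at -3.18 ± 0.42 (log2, adjusted p = 5.11e-05). At 44332, which lies inside intron 16 of 17 of the neighbouring gene Pus10, mTEC-I had 12.1 and 14.8, against 0 to 2.33 in the others, and was higher by 2.86 ± 0.62 (log2, adjusted p = 0.00228). Within the 1 locus of 8 tested peaks, mTEC-I was called lower at 3 and higher at 2 (44332 and -17204), and mTEC-IV lower at 1. Of all peaks, 18.1% were called lower and 20.5% higher in mTEC-I, and 19.7% lower in mTEC-IV. The mTEC-I difference at -17204 was unsteady, at 1.63 (log2) without mTEC-I replicate 1 and 0.89 without replicate 2.

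Rela encodes the RelA (p65) subunit, the main transactivator of canonical NF-kB. Its sum within 10 kb is 1 promoter peak at -20, with 73.6 and 69.4 for mTEC-I, 80.2 and 63.1 in mTEC-II, 78.6 and 66.2 for mTEC-III, with 59.9 and 53.9 for mTEC-IV. Both mTEC-IV libraries were lowest, the other groups overlapped, and it did not pass the F test (adjusted p = 0.458 as a sum). The second peak of Rela, at the end of the gene at 11407, passed with an adjusted p of 0.0352, mTEC-I having 35 and 43.2 and the other 6 libraries 47.3 to 78.6. That call was lost when any of 5 libraries was left out (0.244 without mTEC-I replicate 1, 0.114 without mTEC-I replicate 2, 0.112 without mTEC-III replicate 2, 0.0544 without mTEC-IV replicate 1 and 0.0516 without mTEC-IV replicate 2), on the authors' total-tag scale (0.767) and in DESeq2 (0.112).

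Relb encodes the subunit of the non-canonical dimer. Its sum was 164 and 201 for mTEC-IV, 227 and 209 in mTEC-I, 281 and 268 for mTEC-II, with 289 and 264 for mTEC-III. Both mTEC-IV libraries were below all others, at -0.49 ± 0.11 (log2, adjusted p = 0.00367) against the mean of the other 3. mTEC-II was higher than mTEC-IV by 0.60 ± 0.13 (log2, adjusted p = 0.00535) and mTEC-III by 0.60 ± 0.13 (log2, adjusted p = 0.00691) and on the authors' total-tag scale the second of these turned to -0.10. Without mTEC-IV replicate 1, the difference of mTEC-IV was -0.19 with an adjusted p of 0.458, the F test gave 0.102, and the pairs of mTEC-II and mTEC-III with mTEC-IV gave 0.356 and 0.296, the second also being lost without mTEC-III replicate 1 (0.0915). On the total-tag scale the difference of mTEC-IV was -0.38 (adjusted p = 0.342).

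Most of the Relb signal at any distance lay within 1 kb of the TSS (81.3% on average). A pair of peaks there followed different orders. At 727 (chr7:20213891-20214230), in an intron, the values were 71 and 122 for mTEC-IV, 144 and 143 in mTEC-I, 165 and 169 for mTEC-II, with 191 and 161 for mTEC-III, so that both mTEC-IV libraries were lowest (-0.79 ± 0.17 log2, adjusted p = 0.00182). At the start itself (44, chr7:20214574-20214912) mTEC-I was lowest instead, with 52.9 and 33.9, against 62.2 to 79.3 elsewhere and -0.73 ± 0.20 (log2, adjusted p = 0.00939), and mTEC-IV was not set apart, with 79.3 and 62.2. The F test call at 44 was lost without mTEC-I replicate 1 (0.0647) or 2 (0.815), mTEC-II replicate 1 (0.0694), mTEC-III replicate 2 (0.0524) or mTEC-IV replicate 1 (0.0775), and that at 727 without mTEC-IV replicate 1 (0.288). The difference of mTEC-I at 44 was lost without mTEC-I replicate 2 (0.517), and that of mTEC-IV at 727 without mTEC-IV replicate 1 (0.424). Both further peaks at -5844 and -5623 lie in intron 11 of 13 of the neighbour Clptm1.

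Nfkb1 encodes p105, the precursor of p50. Its sum within 10 kb was 61 and 56.9 for mTEC-I, 76.8 and 80.3 in mTEC-II, 63.2 and 98.2 for mTEC-III, with 78.6 and 76.5 for mTEC-IV, with an F test adjusted p of 0.310. Both mTEC-I libraries were lowest and the other groups overlapped, and its promoter peak at 46, with 18.4 and 19.1 in mTEC-I and 18.8 to 52.7 elsewhere, did not pass either (0.276). Summed within 1 kb, Nfkb1 had 29.6 and 32.3 in mTEC-I, against 41.0 to 62.0 elsewhere. This sum was called lower in mTEC-I against the mean of the other 3 (-0.72 ± 0.21 log2, adjusted p = 0.0345), with an F test adjusted p of 0.116. The gene is long, and only 17.2% of its signal at any distance lay within 1 kb of the TSS. Of its 15 tested peaks 7 passed the F test, all among the 13 farther than 1 kb, beside 60.3% of all such peaks.

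Inside Nfkb1, peaks of the same gene moved in different populations. At 40173 (chr3:135314268-135314409), in intron 6 of 24, the signal was 32.7 and 21.3 for mTEC-I, 3.44 and 2.33 in mTEC-II, 3.42 and 6.20 for mTEC-III, with 0.694 and 3.08 for mTEC-IV. Both mTEC-I libraries were above every other, by 2.83 ± 0.54 (log2, adjusted p = 0.00112). At 58154 in the same intron mTEC-I had 15.7 and 15.9, against 0 to 9.30 (2.36 ± 0.64 log2, adjusted p = 0.00863). At 62627, also in intron 6, mTEC-IV was lowest, with 4.17 and 6.16 against 18.6 to 45.9 (-2.23 ± 0.31 log2, adjusted p = 8.24e-05), and it was lowest too at -7086, with 7.65 and 6.16 against 13.7 to 30. In intron 1 the order differed again: at 1719 (chr3:135352733-135352851) mTEC-IV was highest, with 14.6 and 15.9, against 0 to 5.12 in the others (2.70 ± 0.55 log2, adjusted p = 0.00116), while at 15851 mTEC-I was lowest, with 2.25 and 2.18 against 6.87 to 22.2, and at 20433 mTEC-I was higher than the mean of the other 3 (1.32 ± 0.51 log2, adjusted p = 0.0483) although its 11.7 and 20.2 overlapped with mTEC-III. The F test call was lost at -7086 without mTEC-IV replicate 1 (0.119) or 2 (0.188), at 15851 without mTEC-I replicate 1 (0.126) or 2 (0.135), and at 20433 without mTEC-I replicate 2 (0.101) or mTEC-IV replicate 2 (0.0616). The difference of mTEC-I at 20433 was lost without any 1 of 6 libraries, all but mTEC-II replicate 1 and mTEC-III replicate 1 (0.0608 to 0.373).

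Nfkb2 encodes p100, at once the precursor of p52 and an inhibitor of RelB dimers. Its sum was 209 and 210.5 for mTEC-I, 268 and 225 in mTEC-II, 225 and 253 for mTEC-III, with 228 and 231 for mTEC-IV, mTEC-I being lowest and the other groups overlapping, and the adjusted p was 0.484. The peaks of the first and the second start, whose stretches with GGGAATTCC and GGGACTTTC are printed above, had 119 and 113 in mTEC-I with 114 to 147 elsewhere, and 51.5 and 45.7 in mTEC-IV with 59.3 to 78.6 elsewhere. The F test adjusted p was 0.815 and 0.0787, and mTEC-IV was lower at the second start against the mean of the other 3 (-0.54 ± 0.17 log2, adjusted p = 0.0222). The share of Nfkb2 signal at any distance that lay within 1 kb was 61.2% and 56.8% in mTEC-IV, against 71.3% to 86.2% in the other 6 libraries.

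Of the distal Nfkb2 peaks, 3 were highest in mTEC-IV and called higher there, beside 15.6% of all peaks. Each reached the filter's 10 tags in the mTEC-IV libraries only, so these calls are not independent of the filter. At -59905 (chr19:46319235-46319409) the signal was 25.1 and 25.2 for mTEC-IV, 0.900 and 0 in mTEC-I, 1.15 and 0.775 for mTEC-II, with 5.12 and 7.23 for mTEC-III. It was higher in mTEC-IV by 3.29 ± 0.54 (log2, adjusted p = 0.000230). At -63849 mTEC-IV had 15.3 and 10.8 against 0 to 5.16 (2.89 ± 0.57 log2, adjusted p = 0.000914), and at -7575, on a repeat annotated MYSERV-int, 15.3 and 13.9 against 0 to 8.27 (2.57 ± 0.63 log2, adjusted p = 0.00418). The farther pair lies in intron 3 of 39 of Gbf1, so their assignment to Nfkb2 rests on the nearest start alone. Nfkb2 had 1 more called peak, at 9100 in intron 12 of 17 of Psd, low in mTEC-I with 4.93 and 2.73 and lost when any library of mTEC-I, mTEC-II or mTEC-IV was left out (adjusted p 0.0674 to 0.247).

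Nfkbia encodes IkB-alpha, the fast-acting inhibitor that NF-kB itself induces, and it had the smallest F test p of the members. Its sum was 301 and 309 for mTEC-IV, 370.4 and 377 in mTEC-I, 481 and 474 for mTEC-II, with 461 and 467 for mTEC-III. Both mTEC-IV libraries lay below all others, mTEC-I came next, and the 4 libraries of mTEC-II and mTEC-III lay above both. mTEC-IV was lower than the mean of the other 3, at -0.51 ± 0.086 (log2, adjusted p = 0.000305). In the pairs, mTEC-I was lower than mTEC-II (-0.35 ± 0.10 log2, adjusted p = 0.0313) and mTEC-III (-0.31 ± 0.10 log2, adjusted p = 0.0471), and mTEC-II (0.64 ± 0.10 log2, adjusted p = 0.000396) and mTEC-III (0.60 ± 0.10 log2, adjusted p = 0.00124) were higher than mTEC-IV. On the authors' total-tag scale, the differences of mTEC-I and of mTEC-IV from mTEC-III reversed (0.69 for mTEC-I minus mTEC-III, -0.10 for mTEC-III minus mTEC-IV). mTEC-II was higher than the mean of the other 3 (0.35 ± 0.086 log2, adjusted p = 0.0279), a call lost in 10 of 17 alternatives, among them without any 1 library other than mTEC-III replicate 2 (0.0546 to 0.129). The lower value of mTEC-I was lost in its pair with mTEC-II without any 1 library of these populations (0.0544 to 0.478), and in its pair with mTEC-III likewise (0.110 to 0.514). The pair with mTEC-III was lost as well with a pseudocount of 5 (0.0532), with no filter (0.0545), within 1 kb (0.385) and in DESeq2 (0.130), and the pair with mTEC-II in DESeq2 (0.0983), within 1 kb (0.167) and on the total-tag scale (0.860). Leaving out mTEC-IV replicate 1 left the F test call standing, while the difference of mTEC-IV was then -0.35 (adjusted p = 0.102), and its pairs with mTEC-II and mTEC-III gave 0.0535 and 0.0756. On the total-tag scale the difference of mTEC-IV was -0.40 (adjusted p = 0.323).

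The promoter peak of Nfkbia, at 6 (chr12:56593415-56593841), whose stretch with GAAATTCCC is printed above, was one of 3 member peaks within 1 kb of a TSS that passed the F test. Its signal was 82.1 and 82.7 for mTEC-IV, 127 and 122 in mTEC-I, 144 and 170 for mTEC-II, with 138 and 136 for mTEC-III. Both mTEC-IV libraries were lowest and nearly equal, for -0.75 ± 0.14 (log2, adjusted p = 0.000515), and the F test call was lost without mTEC-IV replicate 1 (0.0655), as was the difference of mTEC-IV (0.0666). The neighbouring peak at 651 did not pass (0.511), with 108 and 107 in mTEC-IV and 95.1 to 150.1 elsewhere. Of the 15 tested peaks of the locus, 11 passed, and all of its distal peaks were annotated as intergenic. Farther than 1 kb, 10 of its 13 tested peaks passed, beside 60.3% of all such peaks.

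A group of upstream Nfkbia peaks was high in mTEC-II and mTEC-III. At -13470 (chr12:56607019-56607190) the values were 10.8 and 8.74 for mTEC-I, 30.9 and 29.6 in mTEC-II, 51.2 and 22.7 for mTEC-III, with 11.1 and 10.8 for mTEC-IV. mTEC-I and mTEC-IV had nearly the same values, and all 4 libraries of mTEC-II and mTEC-III lay above them. The same division held at -6613, with 25.1 and 30.1 for mTEC-I, 50.4 and 53 in mTEC-II, 70 and 52.7 for mTEC-III, with 26.4 and 34.4 for mTEC-IV. It held again at -5311, where mTEC-IV was lower, at -0.62 ± 0.20 (log2, adjusted p = 0.0230). The F test call at -5311 was lost without mTEC-IV replicate 1 (0.0566) and the difference of mTEC-IV there without either mTEC-IV library (0.323 and 0.191), and the F test call at -6613 on the authors' total-tag scale (0.0962).

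Downstream, some peaks were lowest in mTEC-I and others in mTEC-IV. At 26916 (chr12:56566620-56566817) mTEC-I had 8.97 and 9.84, against 22.2 to 37.4 in the other 6 libraries, and was lower, at -1.53 ± 0.27 (log2, adjusted p = 0.000658). The adjacent peak at 27102 was high in mTEC-III, with 30.7 and 38.3, against 5.14 to 25 (1.52 ± 0.36 log2, adjusted p = 0.0310). mTEC-IV was lower at 8062, on a repeat annotated MER110A, with 11.1 and 8.22 against 18.8 to 45.5 (-1.60 ± 0.32 log2, adjusted p = 0.000889). At 13860 it had 0.694 and 2.06 against 8.27 to 14.8 (-2.43 ± 0.48 log2, adjusted p = 0.000903), and at 45700 32.7 and 33.9 against 37.2 to 63 (-0.61 ± 0.19 log2, adjusted p = 0.0217). Leaving out a library lost the F test call at 8062 (mTEC-IV replicate 2, 0.0699), at 13860 (mTEC-IV replicate 1, 0.0899) and at 45700 (mTEC-IV replicate 1, 0.220, or 2, 0.147, mTEC-I replicate 2, 0.0689, or mTEC-II replicate 1, 0.0661). The differences of mTEC-IV were lost without its replicate 1 at 13860 (0.0542) and without either of its libraries at 45700 (0.331 and 0.189), and that of mTEC-III at 27102 without any 1 library outside mTEC-IV (0.0554 to 0.128).

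A pair of Nfkbia peaks went the other way and were highest in mTEC-IV. At -15249 (chr12:56608803-56608963) the signal was 33.4 and 20 for mTEC-IV, 0 and 0 in mTEC-I, 2.29 and 5.45 for mTEC-II, with 1.70 and 7.23 for mTEC-III. mTEC-IV was higher by 3.27 ± 0.59 (log2, adjusted p = 0.000444). mTEC-I had no read end in either library, and its log2 difference from the mean of the other 3 had an adjusted p of 0.00113. Set at 3 read ends over the group, mTEC-I was at least 15.8-fold below the average over the other 6 libraries. That average was raised by the 2 mTEC-IV libraries, and mTEC-II and mTEC-III lay far below it. At 36024 (chr12:56557508-56557713) mTEC-IV had 22.3 and 19, against 0 to 3.10 in the others, the largest rise among the member peaks, at 3.94 ± 0.62 (log2, adjusted p = 0.000170). Such floors cover counting error only.

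Some markers of other cells also had their highest signal in mTEC-IV, where 31.4% of all called peaks had their highest mean. Of 7 thymocyte genes listed, 3 had a peak within 10 kb, and their summed signal was 52.2 and 41.1 in mTEC-IV, against 0.546 to 10.2 elsewhere, carried by Lck and Cd4, with Rag1 at 0 in every library. Of 4 B cell genes, Cd79a alone had a peak, with 27.1 and 24.7 in mTEC-IV, against 0 to 7.23. Together with the tuft cell genes above other than Dclk1, these markers were highest in the same libraries as the peaks at -59905, -63849 and -7575 of Nfkb2, -15249 and 36024 of Nfkbia, 1719 of Nfkb1 and 17655 of Map3k14, and their part in these results was not tested. The peaks were picked here as highest in mTEC-IV, so the shared libraries say nothing on a link with the markers. In mTEC-I, the endothelial sum over the 2 of 4 listed genes with a peak was 27.8 and 20.2, against 2.06 to 6.84 elsewhere, and the myeloid sum over 3 of 6 genes was 4.03 and 14.2, against 30.6 to 63.2. The mesenchyme sum over 3 of 5 genes was 178 and 171 in mTEC-I, against 88.2 to 131 elsewhere, carried by Col1a1, which was higher in mTEC-I (1.04 ± 0.18 log2, adjusted p = 0.000342). The cortical epithelium sum over 3 of 4 genes was 185 and 199.5 in mTEC-I and 198 and 185 in mTEC-IV, against 229 to 283 in mTEC-II and mTEC-III. These 3 genes did not move alike. Ly75 had its highest mean in mTEC-I and did not pass the F test (adjusted p = 0.250), and Prss16 was lowest in mTEC-IV (59.9 and 59.6). Cd83, also among the NF-kB targets listed, was lowest in mTEC-I (46.6 and 48.1). The part of these markers in the results was not tested either.

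**Figure D2:**
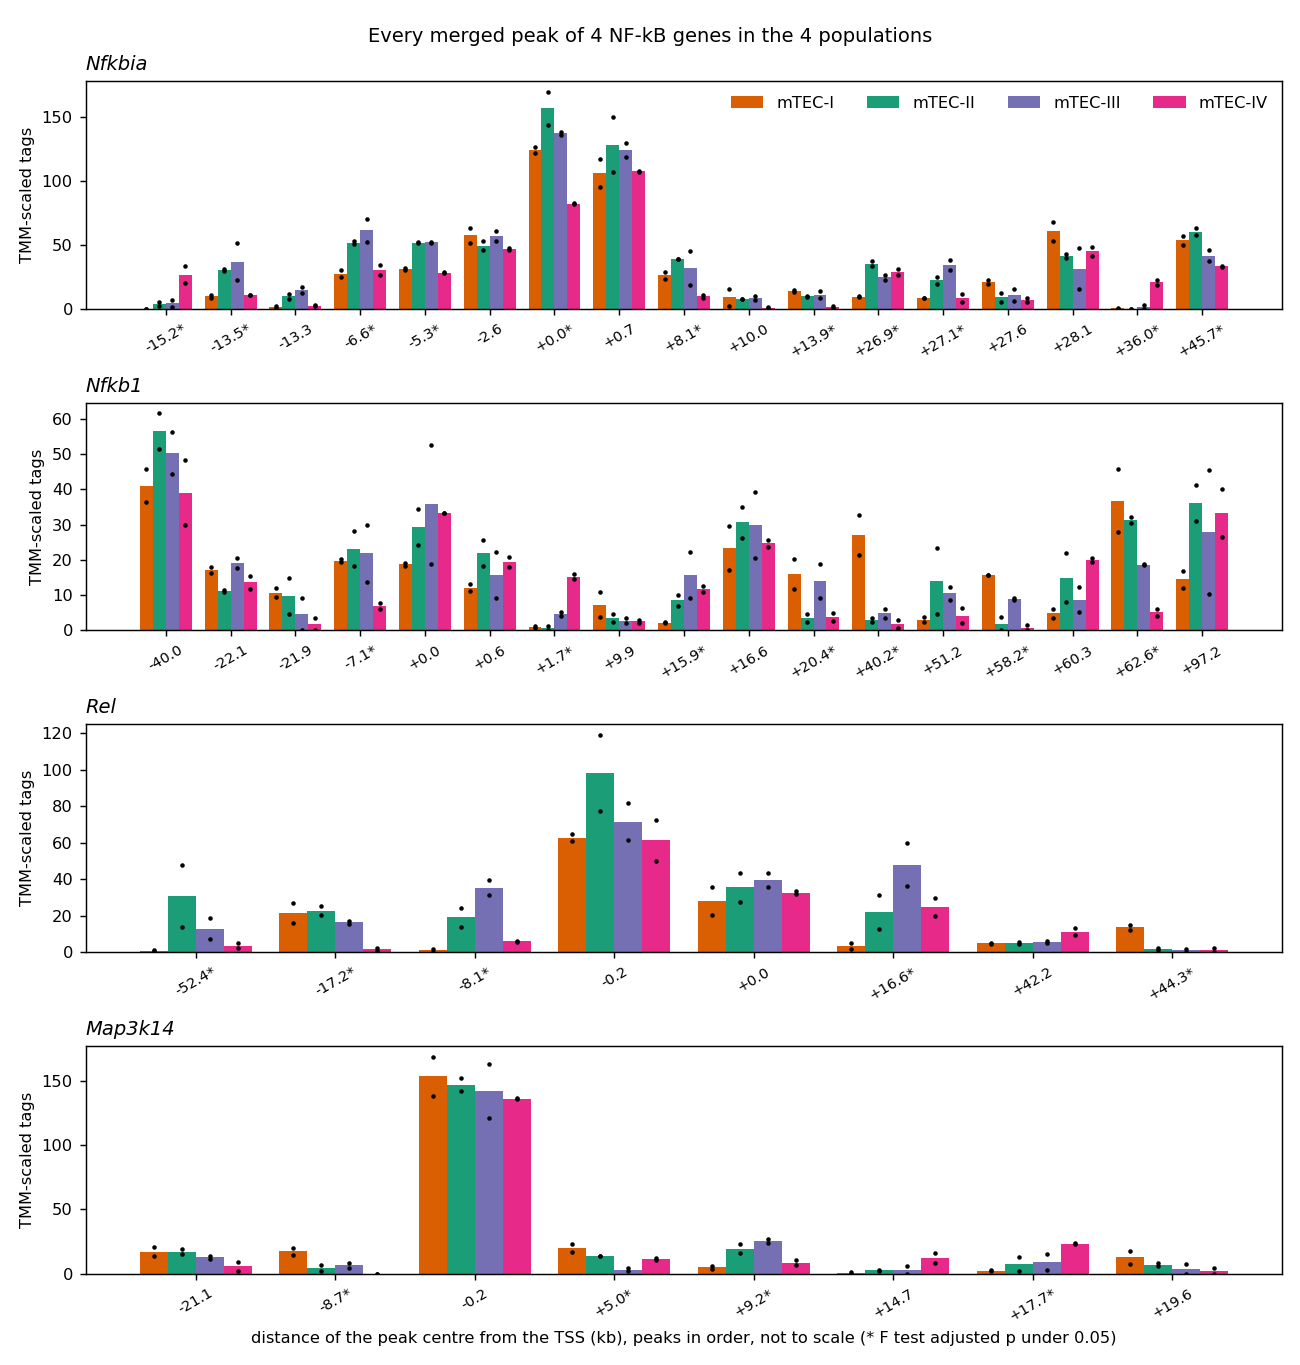
Scaled tags at merged peaks of Nfkbia, Nfkb1, Rel and Map3k14, in order along each gene by distance from the TSS, where bars are population means and dots the 2 libraries of each. Peaks of the same locus were highest in different populations, as at -15249 and 36024 of Nfkbia (mTEC-IV), 40173 of Nfkb1 (mTEC-I) and -8065 of Rel (mTEC-III).

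Nfkbie encodes IkB-epsilon, a slower inhibitor that is also an NF-kB target. Its sum was 89.1 and 100.2 for mTEC-IV, 146 and 125 in mTEC-I, 152 and 197 for mTEC-II, with 188 and 165 for mTEC-III. Both mTEC-IV libraries were below all others, at -0.76 ± 0.13 (log2, adjusted p = 0.000540), and mTEC-IV was lower than each other population in the pairs, where the difference was 0.51 ± 0.17 (log2, adjusted p = 0.0326) for mTEC-I minus mTEC-IV, 0.87 ± 0.17 (log2, adjusted p = 0.00147) for mTEC-II minus mTEC-IV and 0.89 ± 0.17 (log2, adjusted p = 0.00191) for mTEC-III minus mTEC-IV. A pair of its 3 peaks lie in intron 1 of 5. At 2380 (chr17:45694853-45695206) the values were 23 and 23.1 for mTEC-IV, 39.9 and 33.9 in mTEC-I, 56.1 and 86.5 for mTEC-II, with 73.4 and 57.9 for mTEC-III, with mTEC-IV lower, at -1.22 ± 0.22 (log2, adjusted p = 0.000393), and this difference kept its call in all alternatives run. The promoter peak at -29 did not pass (adjusted p = 0.0992), although both mTEC-IV libraries, 57.1 and 65.2, were also its lowest (69.4 to 95.1 elsewhere). Without mTEC-IV replicate 1, the gene's F test gave 0.0562, the difference of mTEC-IV was -0.53 (adjusted p = 0.117), and its pairs with mTEC-I, mTEC-II and mTEC-III gave 0.455, 0.102 and 0.0943, the first also being lost without mTEC-I replicate 1 (0.122) or mTEC-IV replicate 2 (0.150). On the total-tag scale the difference was -0.65 (adjusted p = 0.0573), and with peaks within 1 kb alone it was -0.43 (0.135).

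Nfkbib encodes IkB-beta, an inhibitor that is resynthesised more slowly than IkB-alpha. Its 1 peak, at 53, had 142 and 107 for mTEC-I, 98.5 and 125 in mTEC-II, 109 and 139.6 for mTEC-III, with 131 and 138 for mTEC-IV. The groups overlapped and the F test adjusted p as a sum was 0.634, the highest of the members. The largest of its 4 differences against the mean of the other 3 was -0.19 ± 0.15 (log2, adjusted p = 0.540), in mTEC-II.

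Map3k14 encodes NIK, the kinase that starts the non-canonical pathway. Its sum within 10 kb was 181 and 210.5 for mTEC-I, 189 and 180.1 in mTEC-II, 155 and 198 for mTEC-III, with 152 and 159 for mTEC-IV, with overlapping groups and an adjusted p of 0.317. The promoter peak at -182 held 68.1% of the signal at any distance on average and did not pass (0.838), while 4 of the gene's 6 tested peaks did. These 4 were among its 5 tested peaks farther than 1 kb, beside 60.3% of all such peaks that passed. At -8744 (chr11:103137358-103137561) the signal was 19.7 and 14.8 for mTEC-I, 6.87 and 2.33 in mTEC-II, 8.54 and 4.14 for mTEC-III, with 0 and 0 for mTEC-IV. mTEC-I was higher by 2.45 ± 0.56 (log2, adjusted p = 0.00318). mTEC-IV had no read end, and its log2 difference from the mean of the other 3 had an adjusted p of 0.000440. On the same floor, mTEC-IV was at least 10.6-fold below the average over the other 6 libraries, which the mTEC-I values raised.

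In intron 1 of 15 of Map3k14, 3 peaks followed 3 orders. At 5036 mTEC-III was lowest, with 1.70 and 4.14 against 10.4 to 23 (-2.06 ± 0.43 log2, adjusted p = 0.0196). At 9199 (chr11:103119436-103119596) the values were 5.83 and 3.83 for mTEC-I, 16 and 22.6 in mTEC-II, 23.9 and 26.9 for mTEC-III, with 6.27 and 10.3 for mTEC-IV, and mTEC-I was lower, at -1.55 ± 0.39 (log2, adjusted p = 0.00564). At 17655 mTEC-IV was highest, with 23 and 23.6 against 1.64 to 15.4 (2.13 ± 0.61 log2, adjusted p = 0.0119), a peak whose F test call was lost without any 1 of the mTEC-I and mTEC-IV libraries (0.0745 to 0.127). The difference at 5036 was lost without mTEC-I replicate 2 (0.0553), mTEC-II replicate 1 (0.0518) or mTEC-III replicate 1 (0.114), that at 9199 without mTEC-I replicate 1 (0.0559) or 2 (0.156), and that at 17655 without mTEC-IV replicate 1 (0.118) or 2 (0.123).

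Chuk encodes IKK-alpha, the catalytic subunit on which NIK acts. Its 1 peak, at -8, had 45.7 and 60.1 for mTEC-I, 76.8 and 57.7 in mTEC-II, 85.4 and 61 for mTEC-III, with 70.3 and 65.8 for mTEC-IV. The groups overlapped and the adjusted p as a sum was 0.389. The 3 members with no peak other than 1 at the promoter within 10 kb (Rela, Nfkbib and Chuk) were all among the 6 that did not pass as sums. Among all peaks within 1 kb of a TSS, 20.3% passed the F test.

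**Figure D3:**
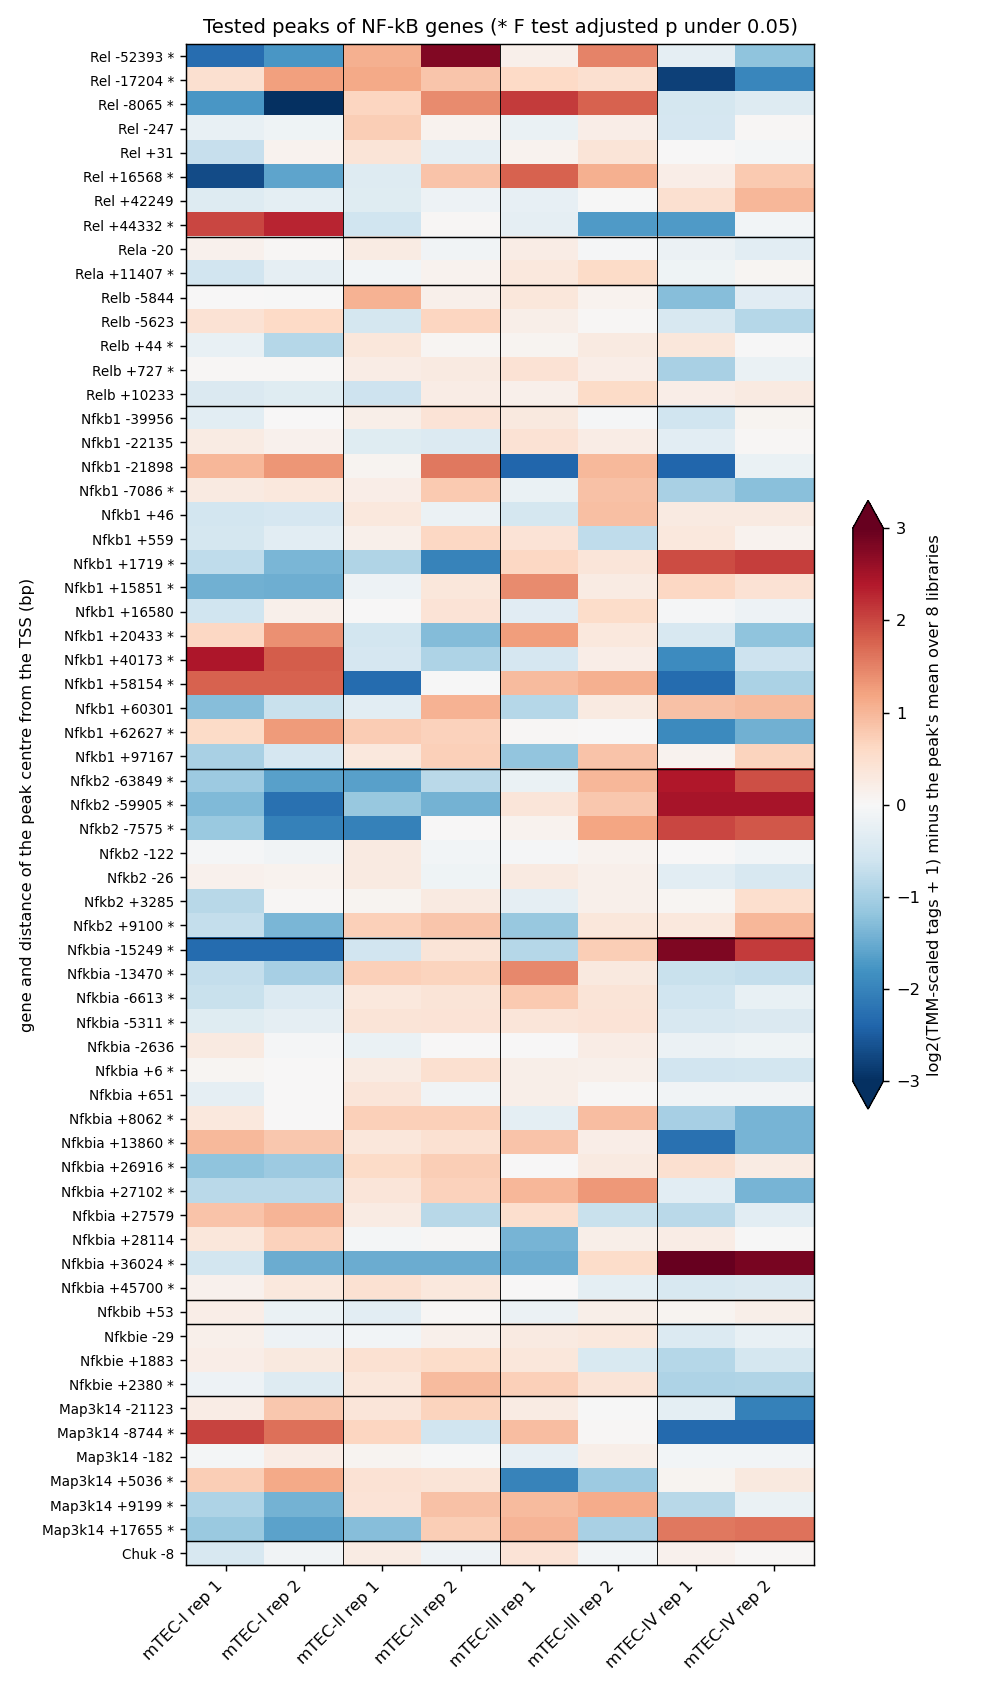
Log2 signal of each tested member peak in the 8 libraries, relative to the peak's own mean over the libraries, with peaks in rows by gene and position and colours limited at 3 in either direction. No member peak was called between mTEC-II and mTEC-III, and 32 of the 35 peaks that passed the F test lie farther than 1 kb from the TSS.

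Over all members, 63 of the 73 peaks passed the filter on low values (10 tags in at least 2 libraries) and were tested, and the other 10 were not. At 44332 of Rel, 40173 of Nfkb1 and -8744 of Map3k14, only the mTEC-I libraries reached 10 tags. Only the mTEC-IV libraries did so at 1719 of Nfkb1, the 3 Nfkb2 peaks highest there, and -15249 and 36024 of Nfkbia. Calls of a higher value at these peaks are not independent of the filter. Of the 63, 35 passed the F test (55.6%), where 49.5% of all 59943 peaks did. Within 1 kb of a TSS the count was 3 of 15 (20%), beside 20.3% of all such peaks, and farther out it was 32 of 48 (66.7%), beside 60.3%. The members' shares were near the background at both distances: among all peaks too, most promoter peaks did not pass and most distal ones did. Against the mean of the other 3, mTEC-I was higher at 9 and lower at 18 member peaks (14.3% and 28.6%, beside 20.5% and 18.1% of all peaks). mTEC-IV was higher at 7 and lower at 19 (11.1% and 30.2%, beside 15.6% and 19.7%). mTEC-II was higher at 3 and lower at 1 (backgrounds 5.01% and 3.45%), and so was mTEC-III (2.59% and 1.43%). On the authors' total-tag scale the counts of higher and lower member peaks were 16 and 11 for mTEC-I, 8 and 2 in mTEC-II, 2 and 12 for mTEC-III, with 8 and 13 for mTEC-IV. Among all 59943 peaks they were 19564 and 7395, 4560 and 1920, 431 and 18336, and 9632 and 11091 in the same order.

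Among the 35 called member peaks, the highest mean lay in mTEC-II at 10 and in mTEC-III at 10 (28.6% each), where 16.4% and 12.4% of all called peaks had theirs. It lay in mTEC-I at 8 (22.9%, beside 39.8%) and in mTEC-IV at 7 (20%, beside 31.4%). The lowest mean lay in mTEC-I at 17 (48.6%, beside 34.4%) and in mTEC-IV at 13 (37.1%, beside 40.8%). In pairs, mTEC-II was higher than mTEC-IV at 18 and lower at 6 (14.1% and 13% of all peaks), mTEC-III was higher than mTEC-IV at 18 and lower at 3 (12.7% and 9.64%), and mTEC-I was lower than mTEC-II at 12 and higher at 4 (9.44% and 10.7%). mTEC-I was lower than mTEC-III at 16 and higher at 4 (11.9% and 11.5%). mTEC-I was higher than mTEC-IV at 15 and lower at 14, close to the backgrounds of 23.5% and 18.7%. Between mTEC-II and mTEC-III no member peak and no member sum was called, where 0.00667% of all peaks were higher, 0.0784% lower, and 1 of 15085 genes lower (0.00663%).

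The authors' own peak lists, called in each library alone, gave a second view of the same reads. Every member peak overlapped a peak of at least 1 list, 13 of the 73 overlapped peaks of all 8 lists and 21 of 1 list. Within 1 kb of a TSS, 9 of 15 (60%) were in all 8 lists, beside 35.1% of all such peaks, and farther out 4 of 58 (6.9%), beside 2.69%. The lists differ in length from 10525 to 44288 peaks, and the number in all 8 was 9 when each was reduced to its best 10525 peaks by the authors' score. Of the 73 peaks, 32 were annotated as intronic and 26 as intergenic, 10 lay inside a different gene (7 tested, 4 called), and 9 (12.3%, beside 9.97% of all peaks) overlapped an interspersed repeat.

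Beyond the members, 72 pathway genes were listed by role, 62 had a peak within 10 kb and were tested, and 23 passed the F test, beside the background of 28.6%. mTEC-IV was lower at 13 and higher at 1 (7.46% and 9.39% of all genes), mTEC-I higher at 9 and lower at 5 (10.7% and 11.1%), mTEC-II higher at 7 and lower at none (2.19% and 1.99%), and mTEC-III higher at 1 and lower at none (1.56% and 2.06%). Of 11 receptors, 5 passed, and this count and those of the other roles below stand beside the same 28.6% of all genes. Cd40, which receives signals from T cells, had 36.9 and 33.9 for mTEC-IV, 63.2 and 78.2 in mTEC-I, 65.3 and 75.6 for mTEC-II, with 64.9 and 85.8 for mTEC-III. Both mTEC-IV libraries were lowest (-1.0 ± 0.19 log2, adjusted p = 0.000818), with the F test call lost without mTEC-IV replicate 1 (0.0835) or 2 (0.0949). Tnfrsf11a, which encodes RANK, was also lower in mTEC-IV (-0.51 ± 0.14 log2, adjusted p = 0.0166), a direction that turned to 0.21 when only peaks within 1 kb were summed and a call lost without mTEC-IV replicate 1 (0.411, and 0.0534 in the F test) or 2 (0.145). Tlr4, the receptor for bacterial lipopolysaccharide, was higher in mTEC-I (0.88 ± 0.19 log2, adjusted p = 0.00233), while Ltbr, the lymphotoxin beta receptor, did not pass (0.187).

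Of 3 tested ligands, 2 passed: Ltb, the membrane partner of lymphotoxin, had 18.1 and 15.9 for mTEC-IV, 0.900 and 0.546 in mTEC-I, 0 and 0 for mTEC-II, with 1.70 and 3.10 for mTEC-III, and was higher in mTEC-IV (3.33 ± 0.65 log2, adjusted p = 0.00113), beside the lymphocyte markers that were highest in the same libraries. Only the mTEC-IV libraries of Ltb reached the filter's 10 tags, so this call is not independent of the filter. Lta, the other lymphotoxin chain, was lower in mTEC-I (-1.70 ± 0.35 log2, adjusted p = 0.00184), with its F test call (0.0507) and this difference (0.0650) lost without mTEC-I replicate 1. Of 13 adaptors and ubiquitin ligases, 2 passed, Traf1 and Traf6. Traf1, an NF-kB-induced adaptor, was lower in mTEC-I (-1.14 ± 0.17 log2, adjusted p = 8.66e-05) and higher in mTEC-II (0.84 ± 0.17 log2, adjusted p = 0.00868, but -0.18 within 1 kb) and mTEC-III (0.73 ± 0.17 log2, adjusted p = 0.0214, but -0.092 on the total-tag scale). The mTEC-I difference of Traf1 was -0.26 over peaks at any distance (adjusted p = 0.128), and its call was lost within 1 kb too (0.0581). The mTEC-II call of Traf1 was lost without mTEC-II replicate 1 (0.128) or 2 (0.0635), and its mTEC-III call without mTEC-I replicate 1 (0.0569), mTEC-III replicate 1 (0.132) or mTEC-IV replicate 1 (0.0700). Traf6, the ubiquitin ligase downstream of RANK and Toll-like receptors, was higher in mTEC-II (0.76 ± 0.19 log2, adjusted p = 0.0328), its F test call lost without mTEC-II replicate 2 (0.0622) and this difference without any 1 library outside mTEC-III (0.0679 to 0.232). Traf2, Traf3, Birc2 and Birc3, the complex that keeps NIK low, had F test adjusted p of 0.0707, 0.105, 0.587 and 0.101.

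Of 8 kinases and their partners, Ikbke and Ikbkb passed. Ikbkb, the canonical IkB kinase, was lower in mTEC-IV (-0.54 ± 0.15 log2, adjusted p = 0.0177), with its F test call lost without mTEC-II replicate 2 (0.0606) or mTEC-IV replicate 1 (0.131) or 2 (0.0877) and the difference without mTEC-IV replicate 1 (0.307) or 2 (0.217), and its scaffold Ikbkg did not pass (0.516). Ikbke was lower in mTEC-I (-1.32 ± 0.26 log2, adjusted p = 0.00111), its F test call lost without mTEC-I replicate 2 (0.0600, and 0.0656 for the difference). Of the 3 atypical IkB proteins, which act in the nucleus, Bcl3 was higher in mTEC-I (0.66 ± 0.093 log2, adjusted p = 6.23e-05, a call lost within 1 kb with an adjusted p of 0.240) and lower in mTEC-IV (-0.55 ± 0.093 log2, adjusted p = 0.000341), the mTEC-IV call being lost without mTEC-IV replicate 1 (0.0852), within 1 kb (0.745) and on the authors' total-tag scale (0.260). Nfkbid was also lower in mTEC-IV (-0.54 ± 0.16 log2, adjusted p = 0.0219), a call lost without either mTEC-IV library (0.292 and 0.280) or mTEC-III replicate 1 (0.0651). Of 10 feedback inhibitors, Tnip3 (F test adjusted p = 0.00567) and Otud7b (0.0356) passed, and Tnfaip3, which encodes A20, did not (0.360). The Otud7b call was lost without any 1 library of mTEC-I or mTEC-IV or mTEC-III replicate 1 (0.0539 to 0.152) and on the authors' total-tag scale (0.172). Of 14 tested targets, 8 passed, beside 28.6% of all genes, in a list chosen with earlier results of these data known. The 3 with the smallest p were the adhesion molecules Icam1 and Vcam1 and the chemokine Cxcl10, and mTEC-IV was lower at each: Icam1, at -1.80 ± 0.14 (log2, adjusted p = 4.37e-07), Vcam1, at -2.07 ± 0.29 (log2, adjusted p = 5.31e-05) and Cxcl10, at -1.54 ± 0.16 (log2, adjusted p = 2.77e-06). Icam1 had 40.4 and 42.1 for mTEC-IV, 192 and 182 in mTEC-I, 137 and 128 for mTEC-II, with 142 and 111 for mTEC-III. The mTEC-IV calls of Tnfrsf11a (0.330), Ikbkb (0.295) and Nfkbid (0.293) were lost on the total-tag scale. With peaks within 1 kb alone, the calls of Tlr4 in mTEC-I (0.0921), Traf6 in mTEC-II (0.0749) and Ikbkb in mTEC-IV (0.690) were lost.

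Nfkbia, the member with the smallest F test p, was compared over the 8 libraries with the 10437 genes whose mean log2 signal was at least 5. The 5 most alike were Tnfrsf13c (Pearson r = 0.994), Mir34a (0.989), Kcnk6 (0.981), Adam19 (0.980) and Tvp23b (0.980). The 8 points fall into 4 pairs of libraries of 1 population, and share their scaling, so these values are a description.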

How the data were processed

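ATAC-seq libraries of 4 sorted mTEC populations, 2 each, were grouped by their titles. The tools named in the submitters' processing notes are HOMER, Picard 1.108 and bcl2fastq 2.15.0.4, with the mm9 build. No aligner, duplicate step or read-end shift is named there. Each library's peaks were called separately by the authors, per the file headers (fragment length 300 bp, false discovery rate 0.001, signal 4-fold over the surrounding 10000 bp), and the merged table holds the authors' signal in tags per 10000000 total tags. The score deposited for each peak served to pick a list's best peaks. In 100% of values this signal was a whole number of read ends (steps of 0.5 tags, within 0.005 tags). Features with at least 10 tags in at least 2 libraries were kept, scaled by TMM and fitted with limma 3.58.1 (R 4.3.3, limma-trend) on log2(value + 1), which understates changes of low values. Adjusted p-values are limma's unless another tool is named, by Benjamini-Hochberg over all 15085 genes or 59943 peaks within a comparison, called under 0.05. edgeR 4.0.16 and DESeq2 1.42.0 were run on the recovered read ends as alternatives, beside other scalings, pseudocounts, filters and distances, the replicate number as a block, and leaving out each library. The fits were tested on simulated data. The members, lists and tests were chosen with earlier results of these data known. Named peaks were those that passed the F test and the one nearest each TSS. Named pathway genes were 11 fixed ones and up to 3 per role with the smallest F test p.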

Additional observations from a re-analysis of the deposited data

How the results depend on the processing

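The number of members passing the F test was 4 in the reported analysis, 7 with the authors' scaling to total tags and 2 for peaks within 1 kb alone. Calls against the mean of the other 3, 5 in all, came to 9 with the authors' scaling, 10 with TMM factors from promoter peaks, 10 with edgeR, 3 within 1 kb and 9 at any distance. Calls in pairs, 12 in all, came to 3 within 1 kb. Other pathway genes passing the F test, 23 in all, came to 48 with the authors' scaling, 11 within 1 kb and 38 at any distance. Member peaks in all 8 peak lists, 13 in all, came to 6 when at least 50% of the peak had to overlap. The cause of these shifts was not tested. No share of all genes is given beside these counts, so they cannot be read as particular to NF-kB genes. With the authors' scaling, 11074 of all 15085 genes were called lower in mTEC-III and 4617 higher in mTEC-I. The same limit holds for the counts below from leaving out libraries and from the block. Higher and lower member peaks with edgeR were 12 and 22 for mTEC-I, 9 and 0 in mTEC-II, 6 and 1 for mTEC-III, with 11 and 19 for mTEC-IV. Among all peaks they were 15552 and 12122, 5210 and 1625, 3239 and 604, and 13586 and 11917 in the same order. With DESeq2 the member counts were 11 and 19, 3 and 0, 3 and 0, and 9 and 12. All peaks gave 13699 and 9321, 3165 and 650, 1902 and 195, and 11382 and 9764 there. In all, limma, edgeR and DESeq2 tested 59943, 65091 and 74086 peaks, of which 63, 70 and 73 were member peaks. Differences reversed with the authors' scaling for Rel (mTEC-I minus mTEC-III, 0.32), Relb (mTEC-III minus mTEC-IV, -0.10), Nfkbia (mTEC-I minus mTEC-III, 0.69, and mTEC-III minus mTEC-IV, -0.10) and Traf1 (mTEC-III against the rest, -0.092), and within 1 kb for Tnfrsf11a (mTEC-IV, 0.21) and Traf1 (mTEC-II, -0.18). Leaving out each library in turn, where a lone library is assumed to vary like the other groups, gave 2 to 4 members and 20 to 39 member peaks by the F test, 1 to 5 and 28 to 71 calls against the other 3, 4 to 13 and 50 to 119 in pairs, and 13 to 29 pathway genes, each lowest without mTEC-IV replicate 1. Of the values for single genes and peaks, 2300 kept their side of the threshold, 393 lost their call, 4 gained one and 7 reversed.

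The source names mark the replicates A and B without saying whether libraries of the same letter share animals or a preparation. Deviations of same-numbered libraries correlated between -0.0113 and 0.0278 over all tested peaks. Many of these peaks are low and vary by counting, so the correlations cannot tell whether the samples are paired. With the replicate number as a block, 4 members and 39 member peaks passed the F test, calls against the other 3 were 5 and 64, calls in pairs 11 and 113, and 24 pathway genes passed. The difference of mTEC-I from mTEC-III at Nfkbia then missed the threshold (adjusted p = 0.0528). With 2 libraries a population and 1424 to 4527 read ends on the members' peaks, the depth limits the precision of low peaks, and no smallest detectable difference was computed.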
